A study of Mus musculus with 21 samples.

Results

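Immediate early genes are the genes that a cell transcribes first after a stimulus, before any new protein has been made. The 10 genes described here were chosen by name as a readout of acute activation at the time the tissue was collected: Fos, Fosb, Jun, Junb, Egr1, Atf3, Ier2, Zfp36, Btg2 and Nr4a1. All 10 were present among the 20960 genes of the count table. The libraries came from the hearts of wild-type mice, all adult males, exposed to either polystyrene nanoplastics, which are plastic particles in the nanometre range, or distilled water for 8 weeks. The nanoplastics group had 4 mice and the control group 3 mice. Every heart gave 3 bulk RNA libraries, from sections labelled atrial, right ventricular and left ventricular, so that there are 21 libraries. Hearts were perfused in the cold before they were cut. The sources used here do not give the strain, particle size, dose or route, nor the interval between the last dose, death and RNA isolation.

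Fos, Fosb, Jun and Junb encode subunits of AP-1, a dimeric transcription factor, and Atf3 encodes a related leucine zipper protein induced by stress. Egr1 encodes a zinc finger transcription factor and Nr4a1 an orphan nuclear receptor. Ier2 encodes a small nuclear protein, Zfp36 (tristetraprolin) a protein that binds AU-rich elements and hastens the decay of cytokine messages, and Btg2 an antiproliferative protein that promotes shortening of poly(A) tails. In the heart, stretch, adrenergic drive, ischaemia and the handling of tissue are all known to induce such genes within a short time, and their messages are short-lived. No time course was measured here, and the libraries show only the level at collection.

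The control libraries held 413436 to 2439314 counts and the nanoplastics libraries 4662 to 2275813. The shallow library was the right ventricle of nanoplastics mouse 2, in which 1 count equals 214.5 CPM, the usual unit for counts relative to the library total, so right ventricular levels are given without it. Over the 3 sections of a heart, the 10 genes together drew 327, 291 and 278 counts in the control mice and 252, 111, 225 and 196 in the nanoplastics mice, and these small numbers limit the precision of every level. Sections entered the hearts in unequal shares: the right ventricle supplied 36.5% to 44.0% of a control mouse's counts and 0.2% to 27.9% of a nanoplastics mouse's. Each count outside the mitochondrial genes was given the length of the longest annotated transcript of its gene. The median of these lengths was 1526 ± 57.6 nucleotides (SD, n = 4) in nanoplastics hearts and 1739 ± 44.1 (SD, n = 3) in control hearts. It describes which genes were counted, and no RNA length was measured. The section labelled atrial had low levels of atrial muscle markers in most hearts: the 8 markers summed to 63950 CPM in nanoplastics mouse 1 and 3215 CPM in nanoplastics mouse 4, but to 64.2 to 675 CPM in the other 5 atrial libraries, against 77.1 to 2273 CPM in left ventricular libraries. In bulk tissue, a lower number of cells of a type and less RNA per cell cannot be told apart.

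Whole-heart levels were compared first, with the counts of a mouse's sections summed. Levels are CPM scaled by TMM, the trimmed mean of M-values, which corrects for differences in library composition. Genes were called at an adjusted p under 0.05 in edgeR's quasi-likelihood test. Of the 10 genes, 6 (Jun, Junb, Atf3, Ier2, Btg2 and Nr4a1) passed the filter on low counts, and 0 of these 6 were called, where 2.56% of the 8485 genes tested were. None of the 6 had an unadjusted p under 0.05, as 18.2% of all tested genes had, and DESeq2 called none of the 10, giving an adjusted p for Jun and Btg2 only. In a fit without the count filter, which kept all 10 genes, 7 log2 changes were positive and 3 negative, with a median of 0.29 against -0.07 over all genes. Scaling by library totals alone made the signs 5 and 5, with a median of 0.06 against -0.28.

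**Figure D1:**
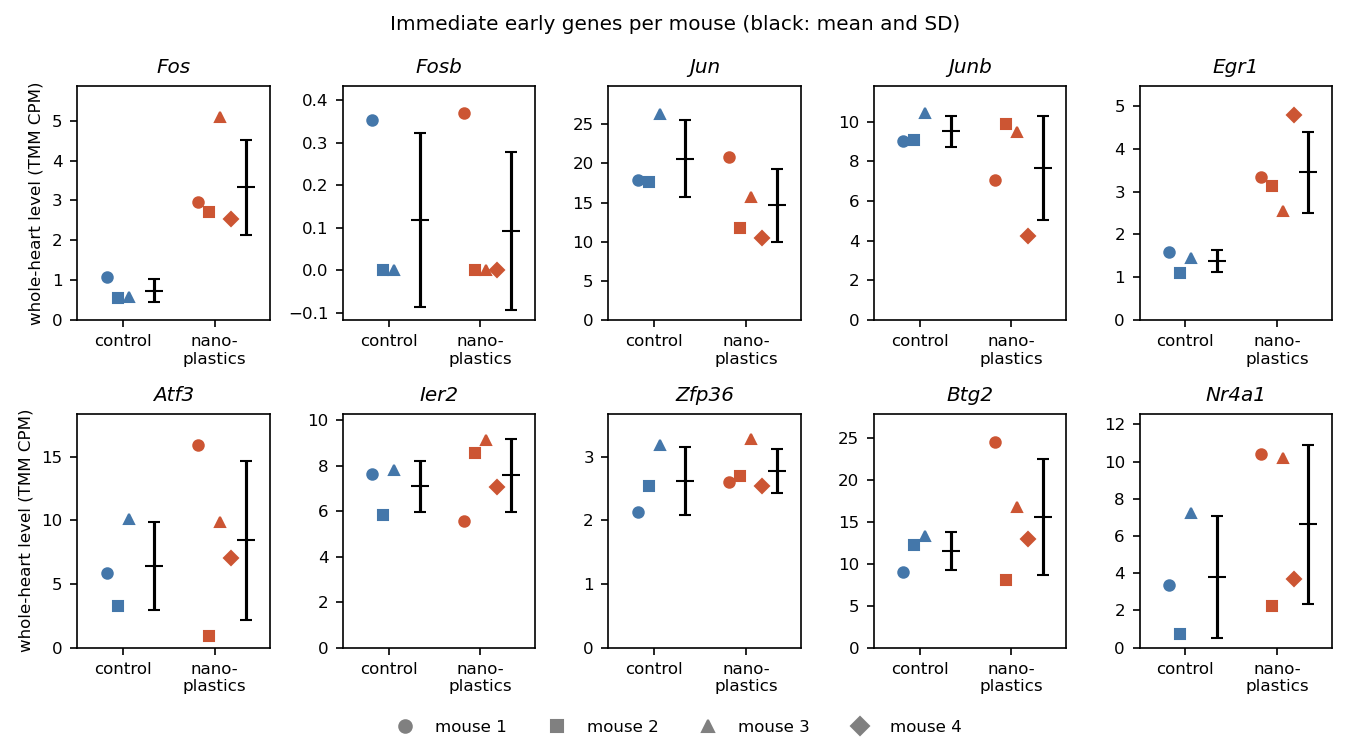
Whole-heart level of each immediate early gene in TMM CPM (y axis, linear, a separate scale for each gene) in 3 control mice (blue) and 4 nanoplastics mice (red), with marker shape for the mouse number and black bars for the mean and SD. Fos and Egr1 are the genes whose groups do not overlap, with the nanoplastics mice higher (5.35% of genes with at least 10 counts); Atf3 and Nr4a1 spread widely within both groups.

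Fos had the largest whole-heart log2 change of the 10 genes in the unfiltered fit, and it was read from few counts. Its promoter window, the 250 bases before the RefSeq transcript start, is shown because Fos is the gene on which the treatment comparison turns. Capitals mark TGACG on either strand (CGTCA where it lies on the other strand), the core of the cAMP response element to which CREB proteins bind. The window is chr12:85473640-85473889 on the plus strand of GRCm38.p6, upstream of the gene and outside any GENCODE gene.

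Fos: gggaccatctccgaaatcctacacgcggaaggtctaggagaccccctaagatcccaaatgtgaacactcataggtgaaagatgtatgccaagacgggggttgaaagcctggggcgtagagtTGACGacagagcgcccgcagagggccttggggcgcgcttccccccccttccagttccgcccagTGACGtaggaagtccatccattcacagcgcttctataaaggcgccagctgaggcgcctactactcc

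The Fos window held TGACG at -129 to -125 and at -66 to -62, counted back from the base before the transcript start, and TATAA at -33 to -29. Of the 10 genes, 8 had an entry in the RefSeq promoter table, and 6 of these 8 windows held TGACG on either strand, where 17.8% of all 32851 windows of this length did. The longer AP-1 site TGANTCA, present in 6.75% of windows, was in none of the 8. A match describes letters in a window and is no evidence of binding.

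Fos had 6, 3 and 2 counts in the control hearts and 8, 6, 14 and 9 in the nanoplastics hearts. The levels were 1.06, 0.545 and 0.58 TMM CPM in the controls and 2.97, 2.7, 5.11 and 2.54 in the nanoplastics mice. Every nanoplastics heart lay above every control heart, a pattern in this direction that 5.35% of genes with at least 10 counts showed, or 1.98% with library totals. The means were 3.33 ± 1.2 (SD, n = 4) and 0.729 ± 0.29 (SD, n = 3), a ratio of 4.56, and the exact two-sided permutation test gave p = 0.0571, the smallest that 4 against 3 mice allow. Pooled by group, the 37 nanoplastics and 11 control counts gave a ratio of 3.8 with an exact 95% interval of 1.9 to 8.25 for counting error only.

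Fos fell below the count filter, so it has no value in the main test. In edgeR's quasi-likelihood fit without that filter its log2 change was 2.09 (SE 0.51, adjusted p = 0.00698), and it was then 1 of 190 genes called higher, 0.906% of 20960. DESeq2 gave 2.21 (SE 0.68) with an unadjusted p of 0.00111 and no adjusted p. The unfiltered call depended on single mice: without control mouse 2 the log2 change was 1.87 (edgeR adjusted p = 0.114), and without nanoplastics mouse 3, the highest heart, it was 1.81 (edgeR adjusted p = 0.0728). The longest annotated Fos transcript, of 2108 nucleotides, is longer than the median annotated length per count in either group. The part of the shift in annotated length in these values was not tested.

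By section as labelled, Fos had 1, 1 and 0 counts in the control atria and 3, 4, 6 and 7 in the nanoplastics atria. The corresponding CPM of library totals were 0.95, 1.01 and 0 against 3.56, 3.1, 6.76 and 3.08, with no overlap, as in 1.3% of genes in that direction. Pooled, the atrial ratio was 6.29 (exact 95% interval for counting error 1.53 to 55.5). The atrial muscle markers of these libraries summed to 249, 675 and 379 CPM in the controls. With nanoplastics they summed to 63950, 295, 64.2 and 3215 CPM, so the marker levels differed widely within that group. The part of atrial muscle in the Fos levels was not tested. The left ventricle gave 2, 1 and 0 counts in the controls and 5, 2, 5 and 2 with nanoplastics, which is 0.82, 0.47 and 0 against 2.96, 1.92, 4.12 and 2.16 CPM. These groups did not overlap as listed, as in 1.58% of genes, but the control library without a Fos count was shallow enough to allow a level of up to 7.26 CPM. The pooled left ventricular ratio was 4.77 (exact 95% interval 1.33 to 25.9).

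In the right ventricle the groups overlapped. Fos had 3, 1 and 2 counts in the controls, and 0, 3 and 0 in nanoplastics mice 1, 3 and 4. The zeros allow up to 5.74 and 6.85 CPM, and the pooled right ventricular ratio of 1.45 had an exact 95% interval of 0.235 to 6.8, which holds both 1 and the ratios of the other sections. In unfiltered edgeR quasi-likelihood fits the log2 change was 2.74 (SE 0.89, adjusted p = 0.248) in the atria, 2.27 (SE 0.86, adjusted p = 0.343) in the left ventricle and 0.60 (SE 1.00) in the right ventricle. The difference of the effect between right and left ventricle was itself -1.94 (SE 1.36), with an adjusted p of 1 in edgeR's interaction test.

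Fosb, the close relative of Fos, was at the edge of detection. It had 2, 0 and 0 counts in the control hearts and 1, 0, 0 and 0 in the nanoplastics hearts, so no statement on its direction is possible. The counts that were seen lay in atrial and left ventricular libraries.

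Jun and Junb encode partners of Fos in AP-1, and for neither was every nanoplastics heart above the controls. Jun had 17.9, 17.6 and 26.4 TMM CPM in the control hearts and 20.8, 11.7, 15.7 and 10.4 in the nanoplastics hearts. Nanoplastics mice 2, 3 and 4 lay below all controls and mouse 1 lay between them. The log2 change was -0.46 (SE 0.22, edgeR adjusted p = 0.288), so it did not pass the test. In the right ventricle Jun was 23.0, 18.4 and 30.8 CPM in the controls and 15.3, 11.1 and 13.7 CPM in nanoplastics mice 1, 3 and 4. These groups did not overlap, as was the case for 19.8% of genes in that direction; the exact permutation p was 0.1, the smallest for 3 against 3, and edgeR's log2 change over the 7 libraries was -0.58 (SE 0.35, adjusted p = 0.493).

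Junb had 9.04, 9.08 and 10.4 TMM CPM in the control hearts and 7.05, 9.89, 9.49 and 4.23 in the nanoplastics hearts. The groups overlapped, and nanoplastics mouse 4 was the lowest. As the mean CPM of a mouse's sections, which weights them equally, Junb was 6.88 ± 2.57 (SD, n = 4) with nanoplastics and 11.1 ± 1.21 (SD, n = 3) in the controls, without overlap (exact permutation p = 0.0571), as for 17.0% of genes in that direction. The shallow library was left out of these means, so nanoplastics mouse 2 entered without a right ventricle. On that scale Fos and Egr1 were again higher without overlap, as were 1.85% of genes. The whole-heart log2 change of Junb was -0.32 (SE 0.26, edgeR adjusted p = 0.568). Junb was lower in all 3 deeper nanoplastics right ventricles, at 1.91, 6.15 and 2.28 CPM, than in control mice 2 and 3 at 14.5 and 12.8 CPM, but control mouse 1 at 5.88 CPM lay within their range. The unfiltered right ventricular log2 change of Junb was -1.30 (SE 0.53, edgeR adjusted p = 0.428).

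Egr1 was the other gene whose whole-heart groups did not overlap. It had 9, 6 and 5 counts in the controls and 9, 7, 7 and 17 with nanoplastics. The levels were 1.6, 1.09 and 1.45 TMM CPM against 3.34, 3.15, 2.55 and 4.8. The means were 1.38 ± 0.26 (SD, n = 3) and 3.46 ± 0.95 (SD, n = 4), a ratio of 2.51 with an exact permutation p of 0.0571, again the smallest possible. Groups lay apart in this direction for 5.35% of genes with at least 10 counts, or 1.98% with library totals. Pooled counts gave a ratio of 2.26 (exact 95% interval for counting error 1.29 to 4.07).

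Egr1 also fell below the count filter, and without the filter its log2 change was 1.35 (SE 0.44, edgeR adjusted p = 0.0907), which did not pass. Within sections its groups overlapped. The atria had 2.85, 1.01 and 1.56 CPM in the controls and 8.32, 1.55, 3.38 and 5.27 with nanoplastics. The left ventricle had 1.23, 1.41 and 0 CPM in the controls and 0, 4.8, 3.29 and 3.25 with nanoplastics. Nanoplastics mouse 1 thus had the highest atrial and, with control mouse 3, the lowest left ventricular value, from 7 counts and 0 counts.

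**Figure D2:**
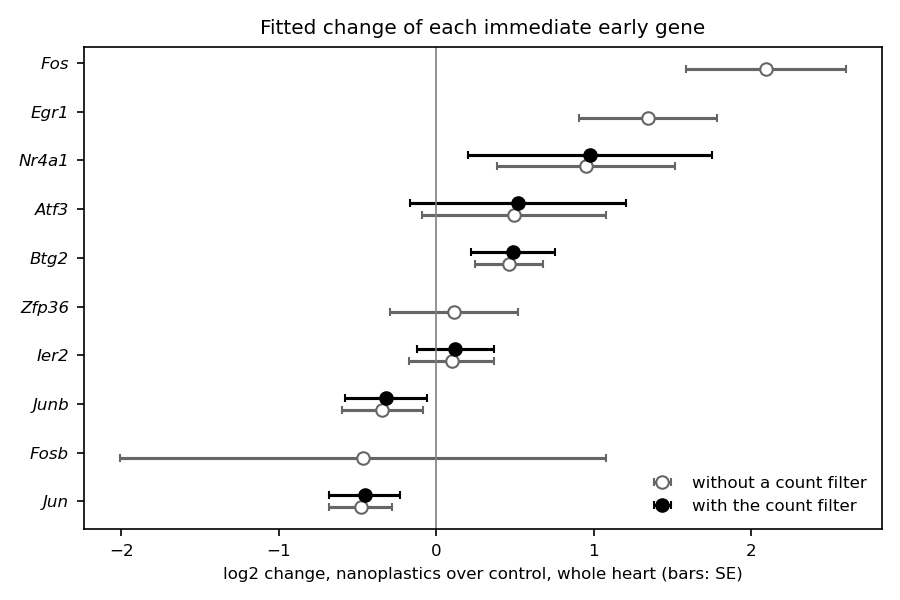
Log2 change of each immediate early gene in the whole heart, nanoplastics over control (x axis), with bars for the SE, from edgeR fits with the count filter (filled) and without it (open). Fos at 2.09 and Egr1 at 1.35 lie farthest to the right and have open points only; Jun and Junb lie on the negative side.

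Atf3 and Nr4a1 varied widely between animals in both groups, and Btg2 did so in the nanoplastics group. Their promoter windows are shown because the 3 genes varied together over the 20 deeper libraries (Pearson's r of 0.52 to 0.63 between them). Capitals mark TGACG or CGTCA as before, and TGACGTCA, the full cAMP response element, in Btg2. The Atf3 window is chr1:191183334-191183583 (minus strand), whose last 7 bases GENCODE places in an Atf3 exon. The Nr4a1 window is chr15:101266596-101266845 (plus strand), within the span of an annotated Nr4a1 transcript that starts further upstream but outside its exons. The Btg2 window is chr1:134079156-134079405 (minus strand), outside any GENCODE gene.

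Atf3: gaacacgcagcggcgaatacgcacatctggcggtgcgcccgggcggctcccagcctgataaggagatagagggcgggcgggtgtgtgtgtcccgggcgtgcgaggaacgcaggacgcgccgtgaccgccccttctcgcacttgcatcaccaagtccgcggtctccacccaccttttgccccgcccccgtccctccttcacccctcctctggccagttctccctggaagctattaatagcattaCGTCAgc
Nr4a1: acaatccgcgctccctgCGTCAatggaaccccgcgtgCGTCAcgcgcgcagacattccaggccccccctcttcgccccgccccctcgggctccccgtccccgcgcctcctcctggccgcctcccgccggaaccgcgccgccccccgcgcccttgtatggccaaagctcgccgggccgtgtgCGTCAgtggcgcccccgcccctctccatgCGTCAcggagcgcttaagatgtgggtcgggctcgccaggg
Btg2: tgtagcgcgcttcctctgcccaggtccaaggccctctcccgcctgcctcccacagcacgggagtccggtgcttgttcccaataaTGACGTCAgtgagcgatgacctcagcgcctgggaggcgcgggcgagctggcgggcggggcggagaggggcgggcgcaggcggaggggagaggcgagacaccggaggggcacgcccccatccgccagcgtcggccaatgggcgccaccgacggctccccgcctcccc

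All 4 matches in Nr4a1 lay on the minus strand, at -233, -213, -69 and -40 for their first base. The single Atf3 match lay at -7 to -3. Both Btg2 matches belong to 1 copy of TGACGTCA at -166 to -159, an element that 1.55% of windows hold and no other window of the 8.

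Atf3 had 5.85, 3.27 and 10.1 TMM CPM in the control hearts and 16.0, 0.899, 9.85 and 7.05 in the nanoplastics hearts. Nanoplastics mouse 1 was the highest and nanoplastics mouse 2, with 2 counts in all, the lowest of the 7 mice. The log2 change was 0.52 (SE 0.69, edgeR adjusted p = 0.764). Nr4a1 had 3.37, 0.726 and 7.24 TMM CPM in the controls and 10.4, 2.25, 10.2 and 3.67 with nanoplastics. Here too mouse 2 of each group was its group's lowest, and the log2 change of 0.98 (SE 0.78, edgeR adjusted p = 0.589) did not pass the test. Btg2 had 9.04, 12.2 and 13.3 TMM CPM in the controls and 24.5, 8.09, 16.8 and 13.0 with nanoplastics. Nanoplastics mice 1 and 2 were the highest and the lowest of the 7, and the change was 0.49 (SE 0.27, edgeR adjusted p = 0.356).

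In single sections the values of the 3 genes were as follows, with no interaction of treatment and section past the test for any of them. In the left ventricle Btg2 was 8.2, 11.8 and 7.26 CPM in the controls and 22.5, 5.76, 13.2 and 13.0 with nanoplastics, a log2 change of 0.76 (SE 0.35, unadjusted p = 0.0399, edgeR adjusted p = 0.319). In the right ventricle Atf3 was 5.88, 5.02 and 6.75 CPM in the controls and 13.4, 7.38 and 18.3 CPM in nanoplastics mice 1, 3 and 4. Those groups did not overlap, as in 2.88% of genes in that direction, with the smallest exact permutation p for 3 against 3, 0.1. Without the count filter the right ventricular log2 changes were 1.16 (SE 0.45, edgeR adjusted p = 0.36) for Atf3 and 1.63 (SE 0.52, edgeR adjusted p = 0.174) for Nr4a1. Nr4a1 had a like value in the left ventricle, 1.56 (SE 0.57, edgeR adjusted p = 0.313), and 0.23 (SE 0.48, edgeR adjusted p = 0.908) in the atria, where Atf3 was 0.31 (SE 0.42, edgeR adjusted p = 0.817). In the left ventricle Atf3 overlapped, from 3.29 to 12.1 CPM in the controls and from 0 to 11.2 CPM with nanoplastics.

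**Figure D3:**
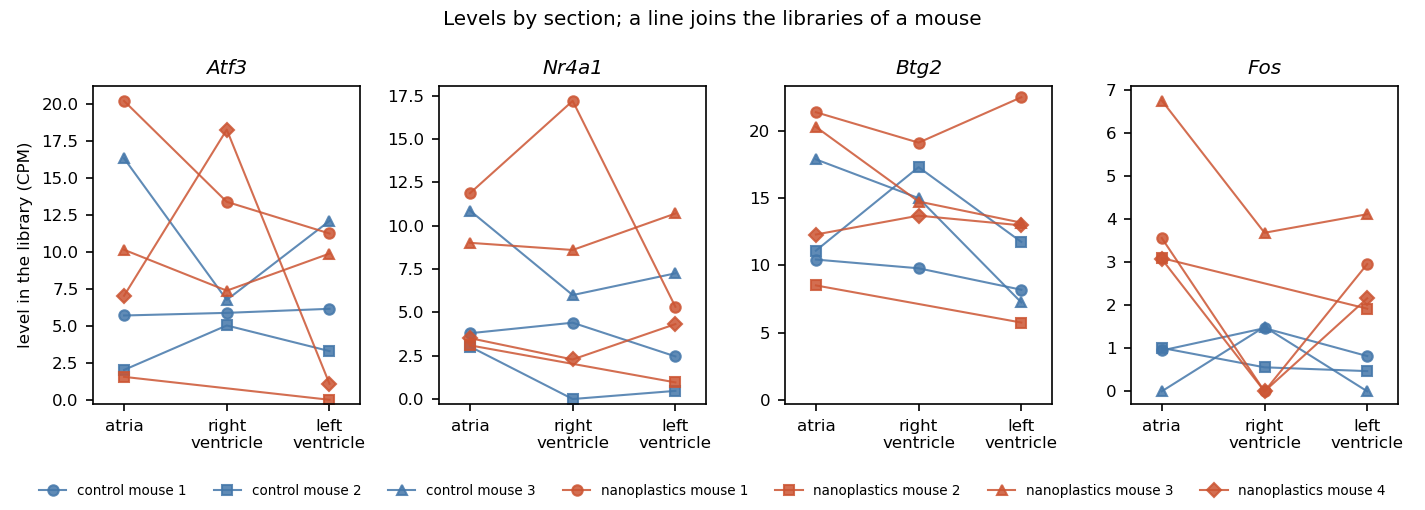
Level in CPM of library totals (y axis) of Atf3, Nr4a1, Btg2 and Fos in the atria, right ventricle and left ventricle of each mouse (lines, blue for control and red for nanoplastics), without the right ventricular library of 4662 counts. Nanoplastics mouse 1 lies high for Btg2 in all sections, and the Fos lines of the groups separate in the atria and left ventricle. Mouse 2 of both groups lies lowest for Atf3 in the atria and for Nr4a1 in the atria and left ventricle.

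Ier2 and Zfp36 had the log2 changes nearest to 0 of the 10 genes. Ier2 had 7.62, 5.81 and 7.82 TMM CPM in the control hearts and 5.57, 8.54, 9.12 and 7.05 with nanoplastics, with a log2 change of 0.12 (SE 0.25, edgeR adjusted p = 0.85). Zfp36 had 2.13, 2.54 and 3.19 TMM CPM in the controls and 2.6, 2.7, 3.28 and 2.54 with nanoplastics, from 6 to 14 counts a heart. Its unfiltered log2 change was 0.11 (SE 0.41). Both genes overlapped between groups in every section, and the sign of both changes turned negative, to -0.11 and -0.10, when library totals alone set the scale.

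Within single sections 0 genes of the 10 were called. The filter kept 4 of them in the atria (Jun, Junb, Atf3 and Btg2), where edgeR called 0.0% of 5502 genes. It kept 2 in the right ventricle (Jun and Btg2), where 0.869% of 4489 genes were called, and 4 in the left ventricle, the same as in the atria, where 0.0551% of 5440 genes were called. Of these tests only Btg2 in the left ventricle had an unadjusted p under 0.05, which 12.3%, 13.5% and 14.1% of all genes had in atria, right and left ventricle, and DESeq2 called none of the 10 in any section. Tests of whether the nanoplastics effect differed between atria and left ventricle, or between the ventricles, covered 6 genes and called 0, as for 0.0% of all 6269 genes; none of the 6 had an unadjusted p under 0.05 (5.5% and 3.0% of all genes), and DESeq2 called none. The largest difference among these was Atf3 between right and left ventricle, at 0.96 (SE 0.67, edgeR adjusted p = 1).

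Between sections within mice, no immediate early gene was called. Sections are named by their labels, and most libraries labelled atrial had low levels of atrial muscle markers. Over all mice Jun was 20.3 ± 7.92 CPM (SD, n = 7) in the atria, 18.7 ± 7.2 (SD, n = 6) in the right ventricle and 13.3 ± 5.1 (SD, n = 7) in the left ventricle. With the mouse as a block, Jun was higher in atria than in left ventricle by a log2 difference of 0.43 (SE 0.20, unadjusted p = 0.0457, edgeR adjusted p = 0.383), which did not pass. Junb was 10.8 ± 3.56 CPM (SD, n = 7) in the atria and 7.71 ± 3.97 (SD, n = 7) in the left ventricle, a log2 difference of 0.50 (SE 0.26, edgeR adjusted p = 0.447). Btg2 was 14.6 ± 5.18, 14.9 ± 3.2 and 11.7 ± 5.59 CPM in atria, right and left ventricle (SD, n = 7, 6 and 7), with neighbouring values that differed by less than their spread. Of the genes that passed the filter, 0 of 3 were called between atria and left ventricle (0.155% of 5176 genes), 0 of 3 between atria and right ventricle (0.606% of 4954) and 0 of 2 between the ventricles (0.02% of 5012). Jun between atria and left ventricle was the only one with an unadjusted p under 0.05, which 12.6%, 7.27% and 5.21% of all genes had in these comparisons, and DESeq2 called none. Fos averaged 2.64 ± 2.26, 1.2 ± 1.39 and 1.78 ± 1.46 CPM in the atria, right and left ventricle, and Egr1 3.42 ± 2.6, 2.2 ± 1.72 and 2 ± 1.83 CPM (SD, n = 7, 6 and 7).

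The spread between mice set Atf3 and Nr4a1 apart. The biological coefficient of variation, the relative spread between mice of 1 group beyond counting error, was 0.667 for Atf3 and 0.688 for Nr4a1, against a median of 0.142 over 8485 genes. Only 0.212% and 0.177% of genes had a value at least as high. Btg2 stood at 0.206 (5.43% of genes at least as high), Jun at 0.171, Junb at 0.156 and Ier2 at 0.132. Much of this spread was shared by the sections of a heart. Over 20 libraries with section means removed, 84.7% of the variance of log2 CPM lay between mice for Nr4a1, 81.6% for Btg2 and 70% for Atf3. Ier2 at 23.9% and Zfp36 at 11.2% had the lowest shares, and the median was 58.6% for the 10 genes and 49.6% for 6518 genes.

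In both groups mouse 2 had the lowest whole-heart level of Atf3 and Nr4a1. In the atria Atf3 was 1.55 CPM in nanoplastics mouse 2 and 2.02 CPM in control mouse 2, while the other atria had 5.7 to 20.2 CPM. Nr4a1 in the left ventricle was 0.47 CPM in control mouse 2 and 0.96 CPM in nanoplastics mouse 2, against 2.46 to 10.7 CPM in the other 5 mice. Elsewhere the gap was smaller or absent. Atrial Nr4a1 was 3.03 and 3.10 CPM in these mice, beside 3.52 CPM in nanoplastics mouse 4 and 3.80 CPM in control mouse 1. Left ventricular Atf3 was 3.29 CPM in control mouse 2 and 0 in nanoplastics mouse 2, but 1.08 CPM in nanoplastics mouse 4. Right ventricular Atf3 in control mouse 2 was 5.02 CPM, beside 5.88 and 6.75 CPM in the other controls. Mouse 2 of each group stood apart in the sum of the 9 macrophage markers, none of which was at 0 in either group. Lyz2, with 6120 control counts against 1140 for the next, C1qb, made up most of this sum. It was 1023 CPM in control mouse 2 and 971.9 CPM in nanoplastics mouse 2, and 528 to 562 CPM in the other 5. The part of this difference in the levels of Atf3 and Nr4a1 was not tested. The labels give no batch, and equal numbers in both groups name different animals.

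Pairs of the 10 genes were compared by Pearson's r over the 20 deeper libraries, with section means removed; libraries of 1 mouse share their animal, so r is a description. The median over 45 pairs was 0.14 (range -0.34 to 0.63), against 0 over all genes. Atf3 and Nr4a1 were the most alike at 0.63, followed by Atf3 and Btg2 at 0.60 and Btg2 and Nr4a1 at 0.52. Junb and Zfp36 reached 0.50, and Jun and Atf3 0.47. Fos was not close to its AP-1 partners, with r = -0.21 to Jun and 0.04 to Junb, and its nearest gene was Btg2 at 0.35. Egr1 and Fos had r = 0.14.

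**Figure D4:**
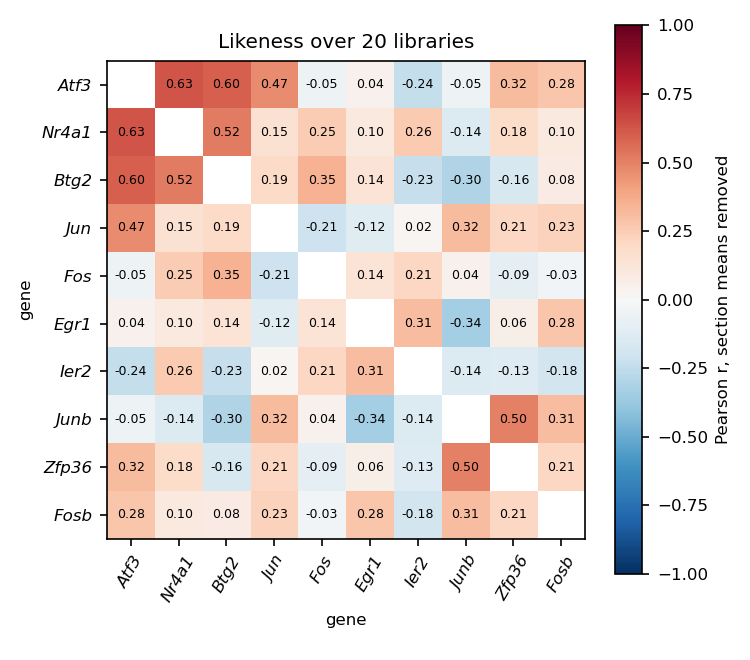
Pearson's r between immediate early genes over 20 libraries, from log2 TMM CPM with section means removed (colour scale from -1 to 1, value in each cell, diagonal left blank). Atf3, Nr4a1 and Btg2 form the block of high values at 0.52 to 0.63, and Fos has no value above 0.35.

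Among other genes with a mean of at least 10 counts, the 5 most like the mean of the 10 were Polr2k (r = 0.82), Gin1 (0.77), Arl4a (0.77), Inmt (0.76) and Ptrhd1 (0.74), over the same 20 libraries. Polr2k encodes a small subunit shared by the nuclear RNA polymerases, Arl4a a small GTPase of the ARF-like family, and Inmt an indolethylamine N-methyltransferase. Only section means were removed, so a difference between the treatment groups enters r, and the pick was not independent of treatment. Of the 5, Inmt was called higher with nanoplastics, at a log2 change of 0.99 (SE 0.23, edgeR adjusted p = 0.0391). In that test 2.56% of all genes were called in either direction. Inmt levels were 28.2, 17.3 and 21.4 TMM CPM in the controls and 62.7, 30.1, 47.4 and 34.1 with nanoplastics, without overlap. Groups lay apart in that direction for 5.35% of genes with at least 10 counts. The adjusted p rose above 0.05 without control mouse 2 (0.162), control mouse 3 (0.112), nanoplastics mouse 1 (0.0801) or nanoplastics mouse 3 (0.062), and with the ventricles alone (0.216).

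Of 51 other immediate early and early response genes in the table, 29 were tested in the whole heart, 0 were called higher and 1 lower (2.56% of all genes were called), and 5 had an unadjusted p under 0.05 (18.2% of all genes). Of the 29 changes 9 were positive, with a median log2 change of -0.25 against -0.03 over all genes. Klf6, a Krüppel-like zinc finger transcription factor, fell from 25.4, 26.5 and 30.1 TMM CPM in the controls to 16.3, 13.0, 15.7 and 14.4 with nanoplastics, without overlap. The share of genes lying apart in that direction is not given for TMM levels. For the mean CPM of a mouse's sections it was 17.0%. The log2 change of Klf6 was -0.84 (SE 0.17, edgeR adjusted p = 0.025). The Klf6 call was lost without control mouse 2 (adjusted p = 0.137), control mouse 3 (0.0757) or nanoplastics mouse 2 (0.0601), and with the ventricles alone (0.06). Ier3, an early response gene linked to cell survival, was -0.85 (SE 0.26, edgeR adjusted p = 0.0829), Ier5 -0.79 (SE 0.33, edgeR adjusted p = 0.198) and Hbegf, a ligand of the EGF receptor, -0.53 (SE 0.24, edgeR adjusted p = 0.233); none passed. DESeq2 called Klf6 and no other of the 51. Dusp1, the phosphatase that switches off MAP kinases, was 0.32 (SE 0.20, edgeR adjusted p = 0.416).

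Of the kinases and transcription factors that induce these genes, 0 of 25 tested were called, by DESeq2 as well, 5 had an unadjusted p under 0.05 (18.2% of all genes, here and for the next lists), and the median log2 change was -0.15. Camk2d, the main calcium/calmodulin kinase of heart muscle, was -0.37 (SE 0.15, edgeR adjusted p = 0.191) and Atf1, a CREB family factor, -0.43 (SE 0.18, edgeR adjusted p = 0.21). Heat shock and tissue handling genes gave 0 calls of 12, with 4 unadjusted and a median of -0.03; Hsph1, a heat shock chaperone, had the lowest p at -0.68 (SE 0.22, edgeR adjusted p = 0.0904), followed by Hspd1, a mitochondrial chaperone, at -0.33 (SE 0.13, edgeR adjusted p = 0.166). Mt1, a metal-binding metallothionein, was the 1 gene of this list that DESeq2 called, and edgeR gave it a log2 change of 0.62 (SE 0.23, adjusted p = 0.178). Of 8 p53 targets 0 were called by either tool, 3 had an unadjusted p under 0.05 and the median was -0.39, with Gadd45a at -0.82 (SE 0.25, edgeR adjusted p = 0.0829) and Cdkn1a, a cell cycle inhibitor, at -0.64 (SE 0.21, edgeR adjusted p = 0.0961). Among cytokine messages that Zfp36 destabilises, 2 passed the filter, 0 were called by either tool and 1 had an unadjusted p under 0.05. Vegfa was -0.64 (SE 0.20, edgeR adjusted p = 0.0879) and Ccl2 -0.22 (SE 0.59, edgeR adjusted p = 0.898).

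As sums in CPM of library totals, markers of cell types that can carry these transcripts overlapped between the groups in the whole heart. TMM factors were 1.019 to 1.138 in control hearts and 0.8821 to 0.9742 in nanoplastics hearts. Scaling by them raises the nanoplastics sums relative to the control sums, so the overlap is stated for library totals only. The 8 fibroblast markers summed to 1079 to 1150 CPM in the controls and 1087 to 1723 CPM with nanoplastics, and 1 of the 8 was called higher, Dcn (log2 change 0.55, SE 0.15, edgeR adjusted p = 0.0466). Ventricular muscle markers summed to 42090 to 55350 and 49440 to 63420 CPM, and 2 of them were called higher with nanoplastics, Myl2 (0.54, SE 0.11, edgeR adjusted p = 0.025) and Tnni3 (0.53, SE 0.10, edgeR adjusted p = 0.0183), which encode sarcomere proteins. Atrial muscle markers summed to 218 to 341 CPM in the controls and to 232, 234, 2651 and 17730 CPM with nanoplastics, the last in mouse 1. All 6 tested had a positive log2 change (median 4.75), edgeR called Dkk3 higher (1.78, SE 0.46, adjusted p = 0.0466), and DESeq2 called Myl7, Sln and Myl4. Nanoplastics mouse 1 also had the highest whole-heart Atf3, Nr4a1 and Btg2. With its atria left out, the log2 changes of these 3 genes were 0.38, 0.90 and 0.47. The part of atrial muscle in their levels was not tested. DESeq2 also called Dcn, Myl2 and Tnni3 but not Dkk3. Of the fibroblast list it called Col1a2 as well, for which edgeR gave a log2 change of 0.72 (SE 0.19, adjusted p = 0.0501). All 4 edgeR calls were lost without control mouse 2 and with sections at equal weight, where 0 genes of the table were called. Endothelial markers summed to 1103 to 1238 and 1086 to 1144 CPM, smooth muscle and pericyte markers to 381 to 520 and 240 to 413 CPM. Single genes made up most of these sums. In control counts Fabp4 had 14331 and the next endothelial marker, Pecam1, 547. Rgs5 had 4610 and the next marker of its list, Acta2, 437. In the fibroblast list Dcn had 12593 and Lum 1233. Members of the endothelial and smooth muscle lists differed in direction: 2 of 8 endothelial and 5 of 7 smooth muscle and pericyte markers tested had a positive log2 change. All 8 fibroblast markers had a positive log2 change (median 0.385), and 4 had an unadjusted p under 0.05 in edgeR (18.2% of all genes). Neutrophil markers summed to 1.65 to 41.7 and 4.26 to 34.7 CPM and lymphocyte markers to 1.99 to 3.96 and 2.62 to 4.95 CPM, with 2 members of each list at 0 in the nanoplastics group. Erythroid markers summed to 233 to 1175 and 425 to 1266 CPM and adipocyte and mesothelial markers to 2.97 to 54.7 and 13.0 to 26.7 CPM. In the right ventricle, where the Jun groups lay apart, Nppa was called higher with nanoplastics (1.08, SE 0.25, edgeR adjusted p = 0.00857) and the pericyte gene Rgs5 lower (-0.87, SE 0.24, edgeR adjusted p = 0.0456); DESeq2 called 0 genes of the table in that section. Between sections, Col1a2, a fibroblast collagen gene, was called higher in atria than in left ventricle (1.34, SE 0.22, edgeR adjusted p = 0.0165) and right ventricle (0.94, SE 0.22, edgeR adjusted p = 0.0103). The part of cell composition in the levels of the immediate early genes was not tested.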

How the data were processed

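RNA was isolated from 3 sections of 7 mouse hearts, and libraries were made with a plate-based kit that captures polyadenylated RNA and adds a well barcode at the 5′ end, per the labels' protocols. Reads were paired-end, 150 bases long, and STAR is the aligner named, per the submitters' processing notes. The sources used here do not give the genome build, annotation, counting program, strand setting or use of molecular identifiers. The authors deposited raw counts per gene symbol for 20960 genes in 21 libraries, and every column was matched to a sample by its library name. Without stated molecular identifiers, reads may be copies of a molecule, so intervals and floors (3 counts) cover counting error only.

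The main test was that of edgeR 4.0.16 in R 4.3.3 (filterByExpr defaults, TMM, robust quasi-likelihood test, Benjamini-Hochberg adjustment over all genes tested, calls at 0.05); adjusted p-values come from edgeR unless another tool is named. DESeq2 1.42.0 and limma 3.58.1 served alternatives: other size factors, library totals, no count filter, each mouse left out, a replicate block, ventricles only, and sections at equal weight. Treatment was compared per mouse on summed sections, within sections, and as an interaction with section over 21 libraries. Section comparisons carried the mouse as a block because its sections come from 1 animal. The edgeR test with the count filter was run on simulated counts for treatment in the whole heart and left ventricle, and for atria against left ventricle. The unfiltered fits, the right ventricle and the interactions were not simulated, and the outcome is not given here. Single values were compared by exact two-sided permutation over the 35 splits of 7 mice. Promoters are the 250 bases upstream of RefSeq starts (GRCm38.p6); GENCODE M21 gave exons and the longest transcript of a gene. Count symbols were used as given, and no coordinate comes from the counts' own build. Genes that overlap others, as Jun and its antisense neighbour Junos do, are uncertain because strand use is not stated.

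The 10 genes, the 16 lists and the rules were chosen with earlier results of these data known. All 10 genes are named in each comparison; from the other lists, called genes are named, or the 2 with the smallest p where none was called; marker lists without a call are given as sums, called erythroid markers and Postn between sections are left out, and Ier3, Ier5, Hbegf, Dusp1 and Mt1 were added after their values were seen. Fits of Fos, Egr1 and Zfp36 under further settings, and fits without the atria of nanoplastics mouse 1, were also added after seeing the data.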

Additional observations from a re-analysis of the deposited data

Results flagged for a closer look

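In the nanoplastics groups of 4 mice, 30 sets of values of the 10 genes were checked for a highest or lowest mouse far from the rest of its group. Chance marks about 1 in 20 sets of independent, continuous values, and 5 were marked here. Many of these sets rest on few counts, and whole-heart sets include the counts of the sections. The 5 marks therefore cannot be set against that rate. The right ventricle, with 3 deeper libraries, was not checked.

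Fos stood out in nanoplastics mouse 3, at 5.11 TMM CPM in the whole heart (14 counts) and 6.76 CPM in its atria (6 counts). The other nanoplastics hearts had 2.54 to 2.97 TMM CPM of Fos and the other nanoplastics atria 3.08 to 3.56 CPM, all above the controls. Zfp36 was 4.94 CPM in the left ventricle of the same mouse (6 counts), where the other nanoplastics left ventricles had 0.96 to 1.18 CPM and the controls 1.64 to 7.26 CPM. The whole-heart Zfp36 level of this mouse, 3.28 TMM CPM, lay close to the highest control at 3.19. Fosb was marked in nanoplastics mouse 1, at 0.371 TMM CPM in the whole heart and 1.19 CPM in the atria, on the strength of 1 count against 0 in the other nanoplastics mice.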

How the results depend on the processing

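The number of immediate early genes called was 0 in all 9 comparisons and stayed 0 in all but 1 of 114 alternatives. In the whole heart without a count filter it was 1 (Fos). With the filter, the 9 main tests kept 2 to 6 of these genes, and never Fos, Fosb, Egr1 or Zfp36. Whole-heart DESeq2 gave an adjusted p to Jun and Btg2 only. Over all genes, the main tests called 0 of 5502 in the atria and 0 of 6269 in each interaction. Where a gene was not tested, or few or no genes of the table were called, the 0 cannot show that its level was unchanged. For Fos without the filter, the whole-heart log2 change ranged from 1.66 (ventricles only, adjusted p = 0.292) to 2.50 (without control mouse 1); single sections gave 2.74 (atria), 2.27 (left ventricle) and 0.60 (right ventricle). Over single members' log2 changes, the sign changed in 23 of 485 alternative values, each within 1 SE of 0. The median share of variance between mice fell from 58.6% to 44.1%, and the median r between members moved from 0.14 to 0.2, when the library of 4662 counts was kept; the median r over all genes then rose from 0 to 0.63. With that library kept, r fell from 0.60 to 0.02 for Atf3 and Btg2 and from 0.52 to 0.05 for Btg2 and Nr4a1. For Atf3 and Nr4a1 it moved from 0.63 to 0.7. The Btg2 share of variance between mice fell from 81.6% to 34.5%.

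Calls over all genes moved more. The whole heart had 217 (0 to 797 over the alternatives, 0 without control mouse 2 or with sections at equal weight), the atria 0 (0 to 132), the right ventricle 39 (0 to 234), the left ventricle 3 (0 to 155), atria against left ventricle 8 (0 to 115), atria against right ventricle 30 (0 to 92) and the ventricles 1 (0 to 5); both interactions had 0 (up to 3 and 1). Library totals alone shifted the median log2 change from -0.03 to -0.27 and turned the split of 152 higher and 65 lower calls into 43 and 754.

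The labels state no pairing by replicate number. Same-numbered hearts had correlations of 0.068, 0.09 and -0.043 over all tested genes, as deviations from the group mean. Hearts with unlike numbers had -0.241 to 0.192. Likeness in a subset of genes was not tested. With a replicate block, 313 genes were called in the whole heart, 106 in the atria, and 4 and 0 in right and left ventricles. Still 0 of the immediate early genes that passed the filter were called. Nr4a1 was then 1.11 (SE 0.33, edgeR adjusted p = 0.0858). Without the mouse block, the section comparisons called 3, 0 and 0 genes.

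Depth limits Fos, Fosb, Egr1 and Zfp36 most, at 48, 3, 60 and 68 counts over all libraries, and the right ventricle with nanoplastics.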
